A study of Mus musculus with 32 samples.

Results

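The replication-dependent histone gene clusters of mouse were described here through every peak of 26 ChIP-seq peak lists that overlapped by at least 1 bp 1 of 3 windows of the mm9 genome. The windows set for the Hist1 cluster are chr13:21780000-22140000 and chr13:23600000-23860000, called Hist1 proximal and Hist1 distal below. The window set for Hist2 is chr3:96000000-96090000. The windows span 360, 260 and 90 kb. Of 387563 peaks on chromosomes 1 to 19, X and Y, 718 lay in the windows, 291 in Hist1 proximal, 303 in Hist1 distal and 124 in Hist2. The windows make up 0.038% of the effective genome size given to the peak caller. Membership was decided by position alone and used no measured value.

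All libraries came from J1 mouse embryonic stem (ES) cells grown in serum with LIF and fixed with formaldehyde. In 21 libraries, 7 targets were precipitated with antibodies from cells of 3 genotypes, Wild-type, Taf5l-KO and Taf6l-KO. RNA polymerase II was precipitated as RNAP, RNAP-ser5 and RNAP-ser2, and the other targets were H3K9ac, H3K4me3, Myc and Oct4. In 5 further libraries, streptavidin beads captured biotin-tagged protein (bioChIP) from 2 TAF5L-FB lines, 2 TAF6L-FB lines and a BirA control, where FB is a Flag-Biotin tag and BirA the enzyme that biotinylates it. The labels give the BirA and tagged lines the wild-type genotype and do not say which promoter drives the tagged protein. The other 6 of the 32 samples are inputs, 5 for the bioChIP libraries and 1 of wild-type cells. The antibody lists were called against inputs of 7771755 unique tags in wild-type, 6245652 in Taf5l-KO and 5923469 in Taf6l-KO. No knockout input is among the samples. There was 1 library for each target and genotype, so values of the 3 genotypes are set side by side with no replicate spread and no test. Unique ChIP tags ranged from 1702363 (RNAP-ser5 in Taf6l-KO) to 22968606 (H3K9ac in Taf5l-KO) among the 21 libraries, and from 18292747 to 27775010 in the bioChIP libraries. Peak lists hold no expression values, so the state of Taf5l, Taf6l and ES cell markers was not analysed here.

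Replication-dependent histone genes encode the core histones H2A, H2B, H3 and H4 and the linker histone H1 in many near-identical copies. They are transcribed mainly in S phase, when new DNA must be packed, from short intronless genes whose transcripts end in a stem-loop in place of a poly(A) tail. ES cells cycle fast and spend much of their time in S phase. TAF5L and TAF6L are core subunits of SAGA, a coactivator complex whose acetyltransferase module modifies H3K9. H3K9ac and H3K4me3 mark active promoters. Serine 5 phosphorylation of the polymerase is highest near gene starts and serine 2 phosphorylation further along the gene.

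RefSeq (GRCm38.p6) names 55 Hist1 genes, 6 of H1, 14 of H2A, 15 of H2B, 9 of H3 and 11 of H4, and 10 Hist2 genes, 4 of H2A, 2 of H2B, 3 of H3 and 1 of H4. Between the first and the last Hist1 gene it places 200 other genes, among them 77 tRNA genes and 75 vomeronasal receptor genes of the Vmn1r family. The peak lists use mm9 and the gene table another build, so peaks carry no gene name here, and a peak at a histone gene cannot be told apart here from one at a tRNA gene. For the same reason it was not checked whether every Hist1 or Hist2 gene lies in a window. Promoters are shown to give the sequence of the kind of element these gene clusters repeat, and a printed promoter may lie outside the windows. A RefSeq promoter was matched for 59 of the 65 genes, 60 promoters in all. One promoter each of H1, H2B, H3 and H4, the first by symbol in Hist1 that the table holds, is printed 5′ to 3′ as the 250 bases before the gene's start. Capitals mark matches on either strand of 4 motifs, the octamer ATTTGCAT bound by Oct4 and its relatives, the E-box CACGTG bound by Myc, the CCAAT box, which reads ATTGG on the other strand, and the TATA box TATAAA. The GRCm38.p6 positions are chr13:23763418-23763667, plus strand, for H1f1, chr13:23934157-23934406, minus strand, for H2bc1, a testis form, chr13:23752095-23752344, plus strand, for H3c2, and chr13:23761250-23761499, minus strand, for H4c1. These are not mm9 positions.
H1f1: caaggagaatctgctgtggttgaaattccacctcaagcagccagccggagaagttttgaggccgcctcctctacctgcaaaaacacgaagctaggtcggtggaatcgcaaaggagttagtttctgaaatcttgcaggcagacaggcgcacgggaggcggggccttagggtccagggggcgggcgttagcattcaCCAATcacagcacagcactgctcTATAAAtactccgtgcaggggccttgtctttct
H2bc1: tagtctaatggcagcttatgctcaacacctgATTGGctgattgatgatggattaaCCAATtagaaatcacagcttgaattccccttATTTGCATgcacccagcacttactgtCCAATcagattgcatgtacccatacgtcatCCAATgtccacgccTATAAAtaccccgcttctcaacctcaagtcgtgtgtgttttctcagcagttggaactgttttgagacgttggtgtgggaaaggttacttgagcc
H3c2: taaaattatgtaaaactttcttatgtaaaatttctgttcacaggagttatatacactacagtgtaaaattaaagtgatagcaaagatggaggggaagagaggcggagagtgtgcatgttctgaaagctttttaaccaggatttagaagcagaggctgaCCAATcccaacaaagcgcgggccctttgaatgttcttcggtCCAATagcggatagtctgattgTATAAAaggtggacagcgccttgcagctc
H4c1: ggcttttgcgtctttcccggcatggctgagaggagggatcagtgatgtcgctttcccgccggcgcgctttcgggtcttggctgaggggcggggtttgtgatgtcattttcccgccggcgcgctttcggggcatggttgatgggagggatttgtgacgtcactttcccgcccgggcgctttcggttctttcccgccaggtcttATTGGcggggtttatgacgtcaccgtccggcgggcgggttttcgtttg

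CCAAT was found in 50 of 60 histone promoters (83.3%) against 33.8% of all 32851 promoters of that length, and TATAAA in 28 (46.7%) against 12.4%. CCAAT was in all 6 H1, 17 H2A and 16 H2B promoters, in 8 of 10 of H3 and in 3 of 11 of H4. ATTTGCAT was in 13 (21.7%) against 1.6%, namely in 6 of 17 H2A and 7 of 16 H2B promoters and in none of the 6 of H1, 10 of H3 and 11 of H4. In the printed set it stands in H2bc1. Paired H2A and H2B genes can share 1 divergent promoter, so these counts are not independent. CACGTG was in 0 of 60 against 6.02%. A match describes letters in this stretch and is not a binding site.

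**Figure D1:**
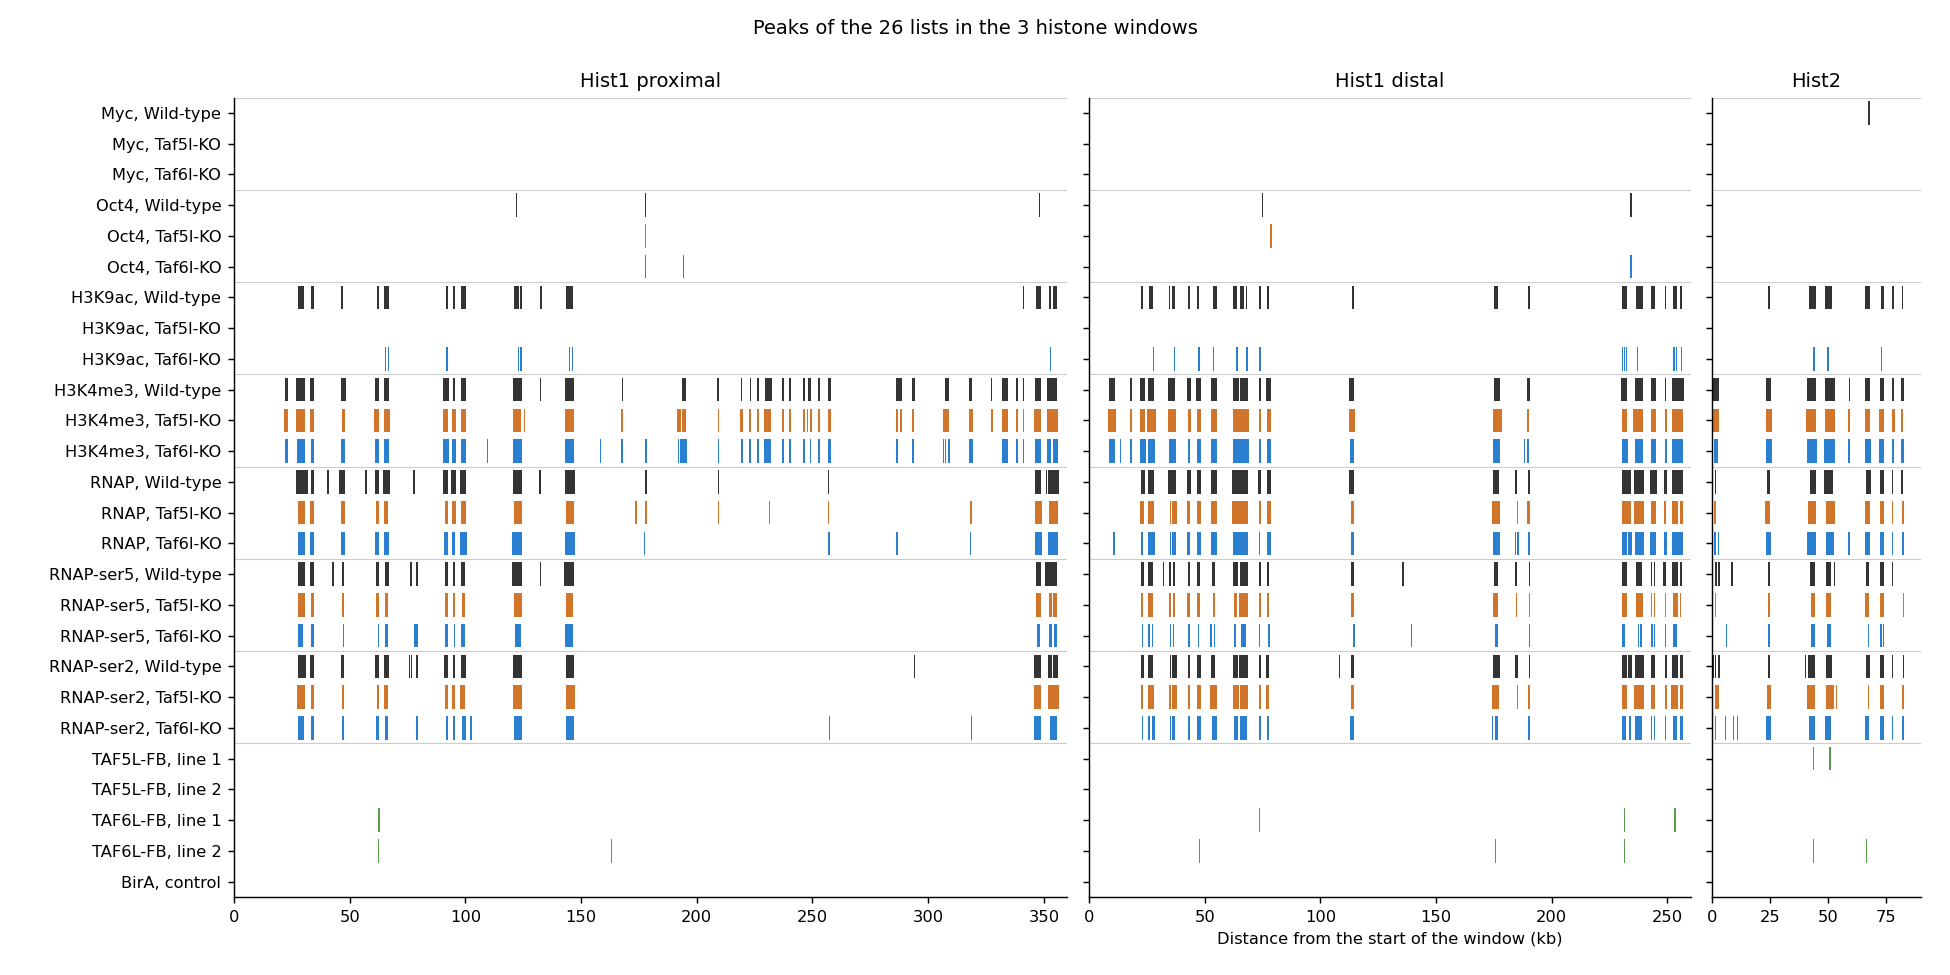
Each bar is a peak of 1 list at its distance in kb from the start of the window, drawn at least 0.6 kb wide, in black for wild-type, orange for Taf5l-KO, blue for Taf6l-KO and green for the tagged proteins. H3K4me3 and the 3 polymerase forms recur at the same places in the 3 genotypes, while H3K9ac has 44 peaks in wild-type, 0 in Taf5l-KO and 25 in Taf6l-KO.

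Most RNA polymerase II peaks of the clusters were among the strongest of their lists in every genotype. Strength is the fold enrichment, the authors' ratio of a peak's pileup to its local background, and it was ranked within a list. RNAP had 46 window peaks in wild-type, 46 in Taf5l-KO and 49 in Taf6l-KO cells, with a median fold enrichment of 13.0, 9.93 and 13.7, where the whole lists had 4.35, 4.76 and 4.95. Of these, 34, 35 and 35 stood in the strongest 10% of their list, which by definition holds 10.0% of all peaks, and 26, 8 and 20 in the strongest 1%. The median window peak stood at percentile 99.1, 96.1 and 98.7. The best ranked was number 33 of 29370 in wild-type, 21 of 20583 in Taf5l-KO and 26 of 26734 in Taf6l-KO.

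RNAP-ser5 and RNAP-ser2 peaks of the windows also ranked high. In the same order of genotypes, RNAP-ser5 had 51, 42 and 46 window peaks, and 38, 39 and 32 of them were in the strongest 10% of the list (10.0% of all). RNAP-ser2 had 51, 42 and 51, with 39, 38 and 39 in the strongest 10% (10.0% of all). The strongest 1% held 34, 28 and 22 of the RNAP-ser5 peaks and 35, 32 and 33 of the RNAP-ser2 peaks. The median fold enrichment of RNAP-ser5 was 8.93, 8.69 and 7.8 in the windows and 3.51, 4.08 and 3.96 over the lists. That of RNAP-ser2 was 10.7, 8.44 and 12.7 against 3.8, 3.79 and 3.68.

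The strongest wild-type peak of each window was present in both knockouts for all 3 forms. In Hist2 the strongest RNAP peak, chr3:96042044-96044580, reached a fold enrichment of 25.6 in wild-type, and of 11.9 and 22.8 in Taf5l-KO and Taf6l-KO, at ranks 33, 286 and 27 of lists of different length. In Hist1 proximal it was chr13:21900454-21904301, at 22.2, 12.5 and 19.1. In Hist1 distal it was chr13:23789537-23790484, at 22.0, 9.39 and 22.0. The libraries held 5174150 unique tags in wild-type, 15865460 in Taf5l-KO and 7236644 in Taf6l-KO, and fold enrichments of different libraries are not on 1 scale. The strongest RNAP-ser5 peaks were chr13:22126610-22128851 (13.0, 8.78 and 13.4 in the same order), chr13:23774874-23776632 (14.0, 10.2 and 10.7) and chr3:96042150-96044452 (13.2, 9.34 and 9.19). Those of RNAP-ser2 were chr13:22125864-22128762 (18.0, 8.65 and 17.3), chr13:23634813-23635301 (16.6, 10.6 and 18.2) and chr3:96041061-96044459 (13.4, 10.6 and 17.0). In Hist2 the strongest peaks of the 3 forms overlap one another. In Hist1 proximal those of RNAP-ser5 and RNAP-ser2 overlap, and in Hist1 distal the 3 lie apart.

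**Figure D2:**
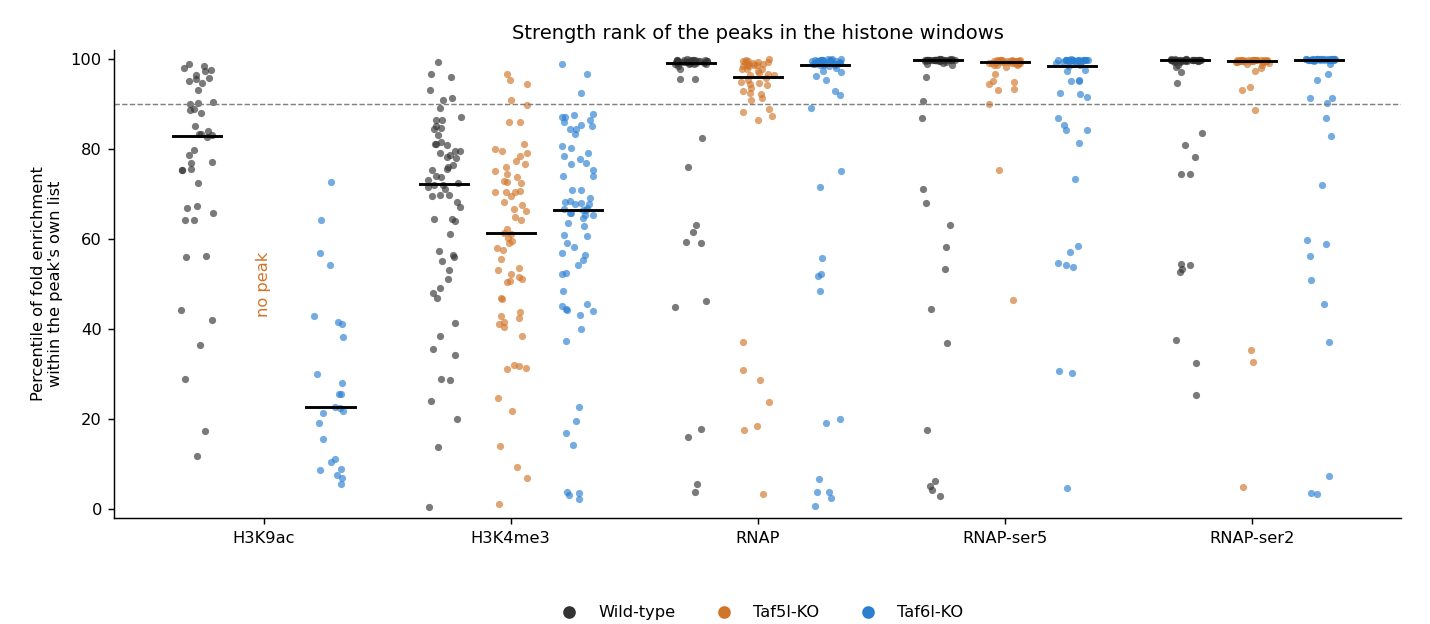
Each point is a window peak at its percentile of fold enrichment within its own list, where 100 is the strongest; black bars are medians, and points above the dashed line at 90 are in the strongest 10%. Polymerase peaks crowd at the top in all 9 lists with medians from 96.1 to 99.8, whereas the medians of H3K4me3 lie between 61.4 and 72.2 and those of H3K9ac at 82.9 in wild-type and 22.7 in Taf6l-KO.

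Polymerase peaks in the clusters were also wide. The median RNAP width was 2022.5 bp in wild-type, 1716 bp in Taf5l-KO and 1649 bp in Taf6l-KO windows, against 479, 569 and 527 bp over the lists. RNAP covered 14.0, 12.8 and 12.7% of the windows. RNAP-ser2 had medians of 1534, 1608 and 1073 bp (464, 540 and 396 bp over the lists) and covered 11.4, 10.8 and 9.47%. RNAP-ser5 had medians of 1087, 1164 and 450.5 bp (412, 531 and 363 bp over the lists) and covered 9.94, 8.38 and 5.61%. The low Taf6l-KO value of RNAP-ser5 comes from the library with the fewest tags, 1702363 against 3871824 in wild-type and 8807133 in Taf5l-KO. The part of depth in it was not tested.

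Wild-type polymerase peaks of the clusters recurred in the knockouts at a high rate. A knockout RNAP peak overlapped 40 of 46 in Taf5l-KO (87.0%, exact Clopper-Pearson 95% interval 73.7 to 95.1), where 52.5% of the list was overlapped, and 39 of 46 in Taf6l-KO (84.8%, 71.1 to 93.7; list 60.4%). For RNAP-ser5 the counts were 40 of 51 (78.4%; list 26.2%) and 38 of 51 (74.5%; list 16.5%). For RNAP-ser2 they were 42 of 51 (82.4%; list 36.6%) and 43 of 51 (84.3%; list 38.7%). The intervals hold for counting error alone, since peaks close together share their source.

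Strong peaks recurred more often than weak ones over these lists too, so the window peaks were also set beside the strongest 10% of the list. Among RNAP peaks of that strength, 34 of 34 window peaks recurred in each knockout, where the list had 96.2% in Taf5l-KO and 98.3% in Taf6l-KO, so the count lies near its background. Among RNAP-ser5 peaks of that strength, 38 of 38 recurred in Taf5l-KO (list 55.1%) and 37 of 38 in Taf6l-KO (list 43.8%). Among RNAP-ser2 peaks it was 39 of 39 in each (list 72.2% and 75.8%). Most of these window peaks were in the strongest 1%, where the list itself recurred at 89.9 and 80.6% for RNAP-ser5 and at 95.3 and 96.5% for RNAP-ser2. Window peaks below the strongest 10% recurred at counts near those of the lists at that strength. In Taf5l-KO and Taf6l-KO these were 6 and 5 of 12 for RNAP (lists 47.6 and 56.2%), 2 and 1 of 13 for RNAP-ser5 (lists 22.9 and 13.4%) and 3 and 4 of 12 for RNAP-ser2 (lists 32.7 and 34.6%).

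**Figure D3:**
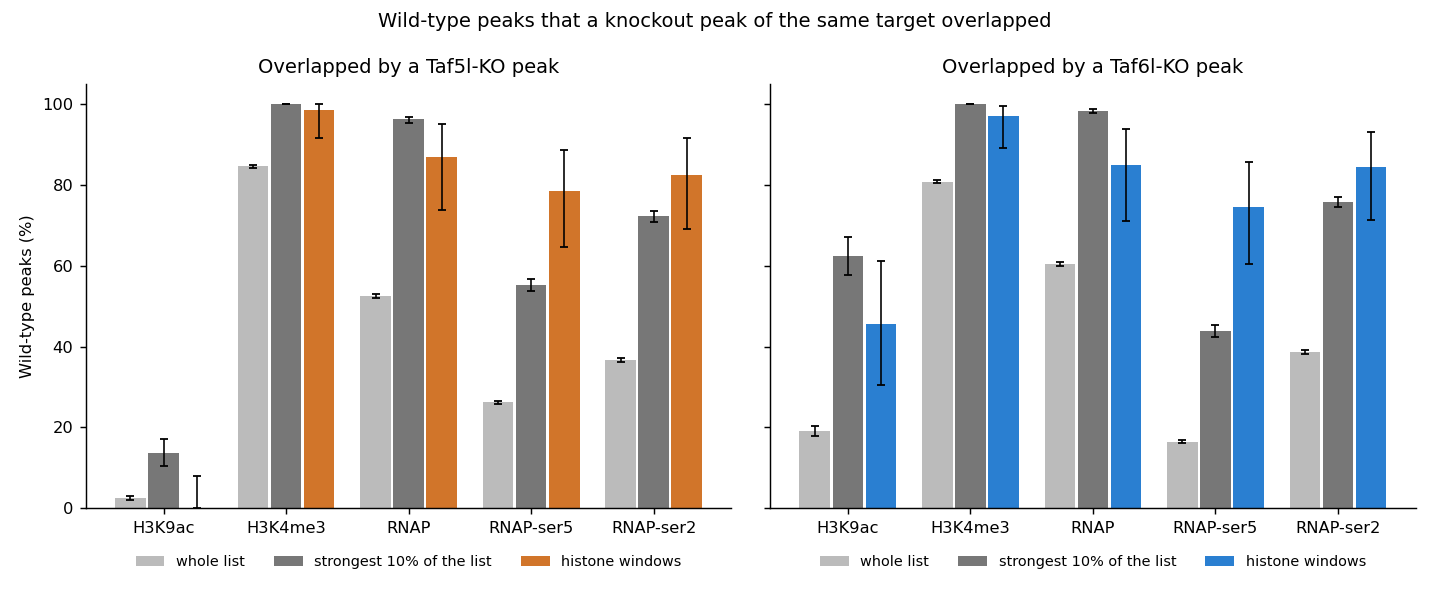
Bars give the percent of wild-type peaks that a Taf5l-KO (left) or Taf6l-KO (right) peak of the same target overlapped, for the whole list (light grey), its strongest 10% (dark grey) and the histone windows (colour), with exact 95% binomial intervals. The window bars stand at 74.5% or more for H3K4me3 and the 3 polymerase forms, at 45.5% for H3K9ac in Taf6l-KO and at 0 for H3K9ac in Taf5l-KO.

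Few peaks appeared in the knockout windows alone. Of the RNAP peaks, 4 of 46 in Taf5l-KO and 8 of 49 in Taf6l-KO met no wild-type RNAP peak, against 27.3 and 33.2% of the lists, and their fold enrichment reached 4.13 and 5.27. For RNAP-ser5 these were 1 of 42 and 4 of 46 (lists 48.3 and 52.6%), and for RNAP-ser2 1 of 42 and 7 of 51 (lists 49.8 and 56.7%). None of these was above percentile 73.4 of its list.

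In wild-type cells the marks and the polymerase forms shared the places of the strong RNAP peaks. All 34 of the wild-type RNAP window peaks in the strongest 10% overlapped a wild-type H3K9ac peak, against 46.5% of all RNAP peaks of that strength. All 34 also overlapped H3K4me3 and all 3 polymerase forms in every genotype, against 57.0%. Of the 12 weaker RNAP window peaks, 2 overlapped H3K9ac (8.64% of all RNAP peaks outside the strongest 10%), 6 overlapped H3K4me3 (50.7%) and 0 carried the full set in every genotype (6.97%). Over all 46 this makes 36 with H3K9ac (list 12.4%), 40 with H3K4me3 (list 55.2%) and 34 with the full set in every genotype (list 12.0%). At the 34 strong sites H3K9ac was listed in Taf6l-KO at 17 (13.6% of all RNAP peaks of that strength) and in Taf5l-KO at 0 (1.53%). All 34 carried the 3 polymerase forms in every genotype, so splitting them by H3K9ac could show no difference in listed polymerase. Of the 34 strong sites, 26 were in the strongest 1% of the list, for which these background shares were not computed. Overlap needed only 1 bp, and no background here was matched for width. Wild-type RNAP window peaks had a median width of 2022.5 bp, against 479 bp over the list. The part of width in these shares was not tested, nor that of strength within the strongest 10%.

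H3K9ac peaks were many in the clusters of wild-type cells, fewer and shorter in Taf6l-KO, and not listed in Taf5l-KO. Wild-type cells had 44 window peaks, 16 in Hist1 proximal, 21 in Hist1 distal and 7 in Hist2, out of a list of 4131. Taf6l-KO had 25 of 898 (8, 14 and 3), and Taf5l-KO had 0 of 110. The windows held 1.07% of the wild-type peaks, 2.78% of those in Taf6l-KO and 0 of those in Taf5l-KO. The covered share of the windows was 8.65% in wild-type, 1.3% in Taf6l-KO and 0 in Taf5l-KO. The lists themselves differ in length by far, and the shorter lists came from the deeper libraries, with 17460064 unique tags in wild-type, 18739413 in Taf6l-KO and 22968606 in Taf5l-KO. The peak caller modelled a fragment of 139 bp in wild-type, 122 bp in Taf6l-KO and 104 bp in Taf5l-KO, and the part of this in the lists was not tested.

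In wild-type cells the H3K9ac peaks of the clusters were strong and wide for their list. Fold enrichment ran from 4.14 to 8.7 with a median of 5.94 (list 4.82), and 13 of 44 were in the strongest 10% (10.0% of all), 9 in Hist1 distal, 4 in Hist2 and 0 in Hist1 proximal. The median width was 1143 bp against 479 bp over the list. The strongest was chr13:23636039-23637026, rank 47 of 4131. Between the 2 Hist1 windows there was 1 wild-type H3K9ac peak, or 0.0685 per 100 kb, against 4.44 in Hist1 proximal, 8.08 in Hist1 distal and 7.78 in Hist2. All 44 overlapped H3K4me3, as did 98.5% of the list, 40 overlapped all 3 polymerase forms (list 46.3%), and 39 overlapped H3K4me3 and all 3 forms in every genotype (list 33.3%).

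In Taf5l-KO none of the 44 wild-type H3K9ac peaks was overlapped, and the exact interval of 0 of 44 reaches 8.04% (6.82% taking 3 counts as the limit). Over the list 2.54% were overlapped, and 13.6% in its strongest 10%, where the windows had 0 of 13. With so few peaks kept anywhere, the windows' 0 lies near the background of the list. In Taf6l-KO 20 of 44 were overlapped (45.5%, 30.4 to 61.2), where the list had 19.2%. In the strongest 10% it was 8 of 13, where the list had 62.5%, and below it 12 of 31, where the list had 14.4%. The excess over the list depends on the threshold and on how much overlap counts. At a −log10 q of at least 5, 0 of 26 were overlapped (list 21.3%), and 4 of 44 were when an overlap had to span 50% of the wild-type peak (9.09%; list 7.36%). The 20 were 6 of 16 in Hist1 proximal, 11 of 21 in Hist1 distal and 3 of 7 in Hist2. All 25 Taf6l-KO window peaks overlapped a wild-type peak, as did 89.8% of that list.

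What remained in Taf6l-KO was short and ranked low. The median width of its window peaks was 365 bp (list 276 bp) and the widest spanned 797 bp. Their fold enrichment ran from 4.49 to 6.58 with a median of 4.88, below the list's 5.61, and 0 of 25 were in the strongest 10% (10.0% of all). The median stood at percentile 22.7, where the wild-type window peaks stood at 82.9. The 25 peaks had a −log10 q between 1.31 and 4.89 with a median of 1.92, where the cutoff lies at a q of 0.05. They covered 8.17 to 75.4% of the wild-type peak they met, with a median of 29.8%, and at 4 wild-type peaks there was more than 1 of them.

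The 20 wild-type peaks that recurred in Taf6l-KO had a median fold enrichment of 6.36 (4.69 to 8.7) and a median width of 1737.5 bp. The 24 that did not had a median of 5.67 (4.14 to 7.8) and 1002 bp. The ranges of fold enrichment overlap from 4.69 to 7.8. At the strongest peak of each window, fold enrichment was 6.48 in wild-type and 4.88 in Taf6l-KO in Hist1 proximal (chr13:22132200-22133189), 8.7 and 4.49 in Hist1 distal (chr13:23636039-23637026), and 7.53 and 6.16 in Hist2 (chr3:96041739-96044846). The 5 strongest wild-type peaks found in neither knockout were chr13:23642956-23643530 (7.8), chr13:23677007-23677801 (7.23), chr3:96066119-96068269 (7.15), chr13:23775089-23776903 (6.52) and chr3:96023855-96024789 (6.49). As Taf5l-KO had 0 H3K9ac peaks in the windows, no wild-type window peak could be found in both knockouts. Over the list 2.4% were found in both.

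**Figure D4:**
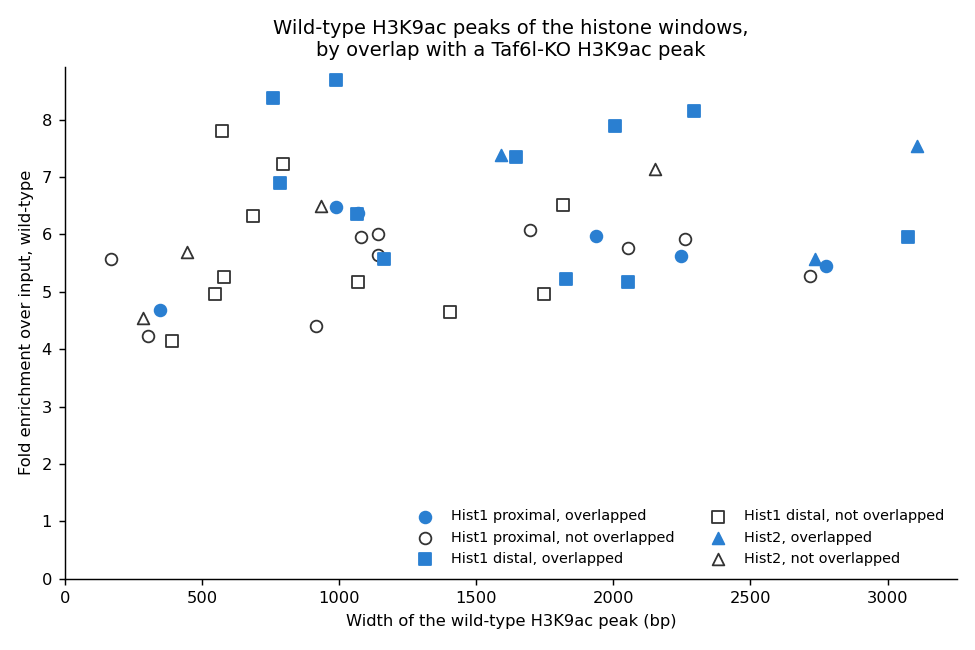
Each symbol is 1 of the 44 wild-type H3K9ac window peaks, by its width in bp and its fold enrichment, with circles for Hist1 proximal, squares for Hist1 distal and triangles for Hist2. Filled symbols are the 20 peaks that a Taf6l-KO peak overlapped and open symbols the 24 that none did; both kinds occur over most of the range of width and strength.

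H3K4me3 had peaks in every window in all 3 genotypes. There were 64 window peaks in wild-type, 67 in Taf5l-KO and 70 in Taf6l-KO, covering 17.5, 18.6 and 17.4% of the windows. They were wide, with medians of 2014.5, 1572 and 1628 bp against 788, 787 and 785 bp over the lists. By fold enrichment they stood above the middle of their lists, at median percentiles of 72.2, 61.4 and 66.5, with no excess among the strongest 10%. The median fold enrichment was 7.91, 7.48 and 8.55 (lists 5.57, 6.28 and 6.52), and 6, 4 and 3 peaks were in the strongest 10% (10.0% of all). Of the 64 wild-type peaks 63 were overlapped in Taf5l-KO (98.4%, 91.6 to 100; list 84.6%) and 62 in Taf6l-KO (96.9%, 89.2 to 99.6; list 80.8%). All 6 in the strongest 10% recurred in both, as did 100% of the list at that strength. The strongest wild-type peaks of the windows were chr13:22120755-22121086 (9.92 in wild-type, 9.95 in Taf5l-KO, 8.31 in Taf6l-KO), chr13:23673414-23674335 (12.0, 11.2 and 11.9) and chr3:96072276-96074294 (14.2, 13.6 and 12.4). Each knockout had a peak at all 3 places.

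Part of Hist1 proximal carried H3K4me3 with little polymerase. Of the 64 wild-type H3K4me3 window peaks, 22 overlapped no polymerase form (list 45.7%), and these were 19 of 35 in Hist1 proximal, 2 of 20 in Hist1 distal and 1 of 9 in Hist2. H3K9ac was on 39 of the 64 (list 12.2%), namely 14 of 35, 18 of 20 and 7 of 9. Most of the difference lay in a stretch of 194.4 kb, chr13:21926422-22120784, the longest in that window without a wild-type H3K9ac peak, which was chosen after its values were seen. In it were 20 wild-type H3K4me3 peaks, 3 RNAP peaks, 0 of RNAP-ser5 and 1 of RNAP-ser2. The rest of Hist1 proximal had 15, 17, 17 and 16. Of the 20, 17 met no polymerase form, 20 recurred in Taf5l-KO (list 84.6%) and 19 in Taf6l-KO (list 80.8%). The strongest H3K4me3 peak of the stretch reached 14.0 in Taf5l-KO (chr13:22066190-22067149, rank 1111 of 32098) and 17.0 in Taf6l-KO (chr13:22066208-22066930, rank 353 of 29463), and the wild-type peak there, chr13:22066213-22068504, had 9.91 (rank 4405 of 32370). These values are not of the same span, as the wild-type peak was 2292 bp wide and the knockout peaks 960 and 723 bp. A second Taf5l-KO peak, chr13:22067801-22068524, overlapped the same wild-type peak and had 3.75. Which genes lie in this stretch was not analysed here.

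H3K4me3 and polymerase peaks of wild-type cells were sparser between the 2 Hist1 windows than in them. That interval had 33 wild-type H3K4me3 peaks, or 2.26 per 100 kb, against 9.72, 7.69 and 10.0 in Hist1 proximal, Hist1 distal and Hist2. Wild-type RNAP had 1.44 per 100 kb there, with a median fold enrichment of 4.47, against 5.56, 6.92 and 8.89 in the windows. RNAP-ser5 had 1.23 against 4.72, 9.23 and 11.1, and RNAP-ser2 1.37 against 4.72, 8.85 and 12.2. For wild-type RNAP, the last peak inside and the first outside an edge were as follows. Hist1 proximal had 15.0 inside and 5.72 outside its lower edge, 26.8 and 157.0 kb from it, and 17.3 and 3.39 at the upper edge, 3.69 and 2.75 kb from it. Hist1 distal had 10.2 and 4.74 at the lower edge, 22.4 and 62.2 kb away, and 13.1 and 13.5 at the upper, 3.24 and 165.6 kb away. Hist2 had 6.25 and 3.97 at the lower edge, 1.02 and 15.3 kb away, and 4.25 and 4.44 at the upper, 7.76 and 1.37 kb away.

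Myc, a factor that promotes growth and proliferation, had 1 window peak in wild-type and 0 in each knockout. It was chr3:96067283-96067378 in Hist2, with a fold enrichment of 9.28 and rank 209 of 538, and it overlapped all 5 chromatin and polymerase targets. No knockout peak overlapped it, as for nearly all Myc peaks: 3.90% of the list was overlapped in Taf5l-KO and 1.67% in Taf6l-KO. The Myc lists were short, with 34 peaks in Taf5l-KO and 23 in Taf6l-KO. The peak caller modelled a Myc fragment of 95 bp in wild-type, 51 bp in Taf5l-KO and 50 bp in Taf6l-KO, and 49 bp for the BirA control. The tag size given for the wild-type H3K9ac list was 50 bp, and that of the Myc lists was not looked up. The part of the modelled fragment in the Myc lists was not tested.

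Oct4, a master factor of pluripotency, had 5 window peaks in wild-type, 2 in Taf5l-KO and 3 in Taf6l-KO, none in Hist2 and none in the strongest 10% of its list. Of the 5, Taf5l-KO peaks overlapped 1 (list 59.1%) and Taf6l-KO peaks 2 (list 46.5%). The strongest wild-type peak, chr13:22127761-22127899, had 7.77 and was in neither knockout. The peak chr13:23833951-23834073 had 6.88 in wild-type and 10.6 in Taf6l-KO (chr13:23833949-23834149), and was absent from the Taf5l-KO list. Weak peaks at chr13:21957523-21957638 in wild-type (5.52), chr13:21957416-21957599 in Taf5l-KO (6.26) and chr13:21957570-21957716 in Taf6l-KO (5.74) marked the only place in the windows where Oct4 was listed in all 3 genotypes. Thus 1 of the 5 wild-type peaks was overlapped in both knockouts, against 38.9% of the list.

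TAF6L-FB was listed at some of the same sites. Its line 1 had 4 window peaks of 1140 and line 2 had 7 of 628, and BirA had 0 of 24. Joined, these made 9 regions of 1625 (0.554%, 0.254 to 1.05), and 2 of the 9 were found in both lines, against 127 of 1625 overall. Of the 9, 8 overlapped wild-type H3K9ac (list 15.1%), 8 H3K4me3 (list 58.3%) and 8 RNAP (list 54.9%), and the same number overlapped RNAP-ser5 (list 24.0%) and RNAP-ser2 (list 33.7%). None overlapped wild-type Myc (list 3.63%) or Oct4 (list 15.5%). The exception was chr13:21942740-21943039 of line 2 (4.97), which met none of the 5 targets. The strongest was chr13:23673360-23673968 of line 1 with a fold enrichment of 5.72, rank 26 of 1140. The region found in both lines with the higher values was chr13:23831250-23831550 in line 1 (5.28) and chr13:23831177-23831491 in line 2 (5.08). The other was chr13:21842283-21842592 in line 1 (4.41) and chr13:21842061-21842360 in line 2 (4.32).

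TAF5L-FB had 2 window peaks, both in line 1 and both in Hist2, out of 136 joined regions (1.47%, 0.179 to 5.21). They were chr3:96043250-96043621 (4.26, rank 49 of 136) and chr3:96050444-96050755 (3.67, rank 101). Both overlapped wild-type H3K9ac (10.3% of the 136), H3K4me3 (39.0%), RNAP (64.7%), RNAP-ser5 (25.0%) and RNAP-ser2 (33.1%), and 2 of 2 has an interval of 15.8 to 100%. Line 2 had 7 peaks in the genome and 0 in the windows. A TAF6L-FB peak of line 2, chr3:96043306-96043794 (4.07), overlapped the first of them, at the place of the strongest RNAP and H3K9ac peaks of Hist2.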

How the data were processed

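The submitters' processing notes name Bowtie2 2.3.2, deepTools 2.5.3 and the mm9 build. Each list came from 1 library called against an input with MACS2 2.1.1.20160309 at a q cutoff of 0.05 and 1 tag kept per position, per the file headers. Broad linking (second cutoff 0.1) was used for H3K9ac, H3K4me3 and the polymerase, which lengthens peaks, and the TAF lists had a fixed fragment of 300 bp, per the file headers. The deposited values per peak are the pileup (a signal), the fold enrichment (a ratio over input), and the −log10 p and −log10 q. They are the authors' values and were ranked within a list. Where fold enrichments of several libraries stand side by side, they describe each list's own peak and are not a measured change.

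Peaks on other contigs (2525) were set aside. Membership, recurrence and shared position needed 1 bp of overlap. Peaks of the 2 lines of a tagged protein were joined, and regions overlapping a BirA peak removed. Shares carry exact 95% binomial intervals. No test between genotypes was made. The overlap steps were tested on simulated peaks.

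The windows, lists and rules were chosen with earlier results of these data known. Named peaks are the strongest wild-type peak per target and window, the 5 strongest H3K9ac peaks in neither knockout, and the 10 highest of the 24 Myc, Oct4, TAF and BirA peaks; others of the 24 and those of the H3K9ac-free stretch were named after their values were seen. Promoters are RefSeq GRCm38.p6.

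Alternatives were −log10 q of at least 5, 50% of the wild-type peak covered, a distance of 1000 bp, merging within 1000 bp, the midpoint in a window, ranking by −log10 q or pileup, BirA regions kept, each line left out and both lines required.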

Additional observations from a re-analysis of the deposited data

How the results depend on the processing

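Of 205 alternative values, 173 were classed as unchanged and 32 as moved. The 173 are not a measure of stability, since they include values that could only be 0, such as the BirA window counts. They also include the share of H3K4me3 window peaks in the strongest 10% when ranked by pileup. That share was 11.9% against 5.97% in Taf5l-KO and 10% against 4.29% in Taf6l-KO. At a −log10 q of at least 5, the number of H3K9ac window peaks was 26 in wild-type and 0 in Taf6l-KO, so that 0% recurred there, where the whole list kept 21.3%. The reported share of 45.5% lies above its list's 19.2%, so this comparison turned round. At that threshold recurrence was 100% for H3K4me3 in Taf5l-KO (list 94.8%), 97.2% for RNAP in Taf5l-KO and Taf6l-KO (lists 51.9 and 81.3%), 97.2% for RNAP-ser5 in Taf5l-KO (list 55.4%) and 97.4% for RNAP-ser2 in both (lists 36.0 and 57.2%). Where an overlap had to span 50% of the wild-type peak, recurrence in Taf6l-KO was 9.09% for H3K9ac (list 7.36%). For RNAP-ser5 it was 45.1%, against the reported 74.5%. The RNAP-ser5 list share at this setting was not computed, so whether the drop is particular to the windows is not known here. Ranked by pileup, 65.9% of the wild-type H3K9ac and 21.9% of the wild-type H3K4me3 window peaks were in the strongest 10%. Without 1 line, the number of TAF5L-FB regions ranged from 0 (without line 1) to 2 and that of TAF6L-FB from 4 (without line 2) to 7. With both lines required there were 0 and 2. The cause of these shifts was not tested, apart from the fewer peaks that a stricter threshold or a left-out line gives. No paired analysis was possible because there is 1 library per target and genotype and no result comes from a test. With 1 library per genotype, an absent peak may be one just below the cutoff, and a difference between genotypes cannot be told apart from one between libraries.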
